A study of Homo sapiens with 12 samples.

Results

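The BCL2 family decides whether the outer mitochondrial membrane stays intact, and 10 of its genes were followed here through the RNA-seq libraries of HCT116 cells, an established human colorectal cancer cell line with functional *p53*. They were taken by symbol: *BCL2*, *BCL2L1*, *MCL1*, *BAX*, *BAK1*, *BBC3*, *PMAIP1*, *BCL2L11*, *BID* and *BIK*. All 10 were among the 60580 genes listed for each library, and all 10 were among the 16123 genes with enough reads to be tested. The cells were either *wild-type* (*WT*) or lacked *miR-34a*, *miR-34b* and *miR-34c* (*miR-34a/b/c-KO*, hereafter KO), and received either 5-FU, a pyrimidine analog that disturbs nucleotide synthesis and damages DNA, or its solvent DMSO for 48 h. Per the study's methods, KO cells are single-cell derived clones made by CRISPR/Cas9, and the *WT* controls are clones that received the Cas9 plasmid without guide RNAs. The study calls the replicates of a state biological, but the sources do not say whether they were different clones or cultures of 1 clone, so p-values refer to the spread between these libraries. Of 12 labelled libraries 11 were used, since the library labelled *WT* 5-FU replicate 1 repeats *WT* DMSO replicate 3 count for count. *WT* cells treated with 5-FU are therefore represented by replicates 2 and 3, and each other state by 3 libraries.

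In healthy cells the anti-apoptotic proteins BCL2, BCL-XL (encoded by *BCL2L1*) and MCL1 hold the pore-forming effectors BAX and BAK (encoded by *BAK1*) in check. BH3-only proteins such as PUMA (*BBC3*), NOXA (*PMAIP1*), BIM (*BCL2L11*), BID and BIK occupy the anti-apoptotic proteins or activate the effectors directly, upon which cytochrome c leaves the mitochondria and caspases are activated. *BAX*, *BBC3* and *PMAIP1* are textbook transcriptional targets of p53, and *BCL2* is an established target of miR-34a. Transcript levels, as measured here, do not report on protein turnover or on binding between family members. Counts are per gene, so isoforms of a gene, and any differences in what they encode, are not told apart.

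The seed of a miRNA (bases 2 to 8, shown in capitals) guides it to matching sites in mRNAs, and miR-34a and miR-34b differ in this stretch. The RefSeq mature sequences (GRCh38.p14) of the 5p arms of *miR-34a* (chr1:9151735-9151756, minus strand) and *miR-34b* (chr11:111512950-111512972, plus strand) are given to show the seeds against which the members were searched. The mature sequence of the third relative, miR-34c, was not in the reference used, and no separate search was made for it.
hsa-miR-34a-5p: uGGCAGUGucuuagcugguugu
hsa-miR-34b-5p: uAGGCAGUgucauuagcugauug
The 3′ UTR of the canonical transcript of each member (GENCODE 44, GRCh38) was searched on the transcribed strand for CACTGCC (7mer-m8), ACTGCCA (7mer-A1) and CACTGCCA (8mer, which contains both) of miR-34a, and for ACTGCCT (7mer-m8) of miR-34b. *BCL2* and *BIK* each held 1 match to the miR-34a seed, and *BAK1* held 1 match to that of miR-34b. These 3 windows, all within a 3′ UTR, are shown with the matching bases in capitals.
BCL2, 7mer-A1, chr18:63128405-63128433, minus strand: atcagctatttACTGCCAaagggaaatat
BIK, 7mer-m8, chr22:43129337-43129365, plus strand: acccccatgacCACTGCCctggaggtggc
BAK1, miR-34b 7mer-m8, chr6:33573176-33573204, minus strand: cctccggccatACTGCCTttgcagttgga
For comparison, 23.5% of the 13060 tested genes with a 3′ UTR held any of the miR-34a words, and 15.8% held the miR-34b word. The remaining 7 members held none of these words in the 3′ UTR searched. A match of letters is a description and not a shown binding site.

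No count fell on *MIR34A*, *MIR34B* or *MIR34C* in any library, in *WT* cells as well as in KO cells, so these counts offer no check of the deletion. The host transcript *MIR34AHG*, from which the miRNA is processed, was at 4.46 to 5.36 CPM (counts relative to the scaled library total) in *WT* and 21.9 to 22.5 CPM in KO cells treated with DMSO. As a check of the drug label, *CDKN1A*, the p53 target encoding p21, was at 166 to 168 CPM in *WT* cells with DMSO and at 1977 and 2179 CPM in those with 5-FU. In KO cells it was at 453 to 488 CPM with DMSO, above the *WT* cells, and at 2431 to 2534 CPM with 5-FU. The epithelial identity of the cells was visible in *KRT8*, *KRT18*, *KRT19*, *EPCAM* and *CDH1*, none of which was below 100 CPM. In contrast, *PTPRC*, *CD3E*, *PECAM1*, *COL1A2* and *DCN*, markers of blood, endothelial and fibroblast cells, had at most 9 counts in any library. Libraries held 22831415 to 39064210 counts.

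All members were expressed in each of the 11 libraries, and the least abundant, *BCL2*, still had 80 to 133 counts. To compare levels between genes, CPM were divided by the kilobases of annotated exon of the gene. On this scale *BCL2L1* ranked first in all 4 states, with 60.9 ± 2.99 CPM per kb (SD, n = 3) in *WT* and 78.4 ± 2.25 (SD, n = 3) in KO cells treated with DMSO. *BCL2* ranked last in all 4 states, with at most 0.394 ± 0.0154 CPM per kb (SD, n = 3). Its long 3′ UTR contributes to the 12612 bases of exon by which it was divided, so that isoforms ending early would be underrated. Between these extremes the per-length order depended on the state. *PMAIP1* held the second place in *WT* cells with DMSO, at 41.5 ± 0.376 CPM per kb (SD, n = 3), but only the fourth in KO cells with DMSO, at 25.1 ± 0.316 (SD, n = 3), behind *MCL1* and *BAX*. Neighbors in this order whose libraries overlapped were *PMAIP1* and *BAX*, *BIK* and *BBC3*, and *BBC3* and *BAK1* in *WT* cells with 5-FU, and *BBC3* and *BAK1* in KO cells with 5-FU.

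Summed over the 10 members, the per-length level was 217 ± 2.95 (SD, n = 3) in *WT* and 222 ± 6.23 (SD, n = 3) in KO cells treated with DMSO, and 411 ± 5.33 (SD, n = 2) and 371 ± 3.80 (SD, n = 3) CPM per kb, respectively, with 5-FU. The anti-apoptotic genes took 46.9 ± 1.01% of this sum in *WT* cells with DMSO (SD, n = 3) and 40.1 ± 0.533% with 5-FU (SD, n = 2). In KO cells the same share was 51.5 ± 0.865% with DMSO and 37.0 ± 0.504% with 5-FU (SD, n = 3 each). The share of the BH3-only genes was 37.6 ± 0.533% in *WT* and 29.3 ± 0.353% in KO cells with DMSO, while with 5-FU the libraries of both genotypes overlapped (34.2 and 39.5% in *WT*, 39.0 to 40.5% in KO cells). The ratio of *BAX* to *BCL2L1* per length was 0.388 ± 0.0424 in *WT* and 0.386 ± 0.0204 in KO cells with DMSO (SD, n = 3 each), and 0.625 ± 0.0545 (SD, n = 2) and 0.693 ± 0.0479 (SD, n = 3) with 5-FU. The ratio of *PMAIP1* to *MCL1*, which encodes the main partner of NOXA, was 1.02 ± 0.0222 in *WT* and 0.702 ± 0.0249 in KO cells with DMSO (SD, n = 3 each). These shares and ratios are descriptions without a test.

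**Figure D1:**
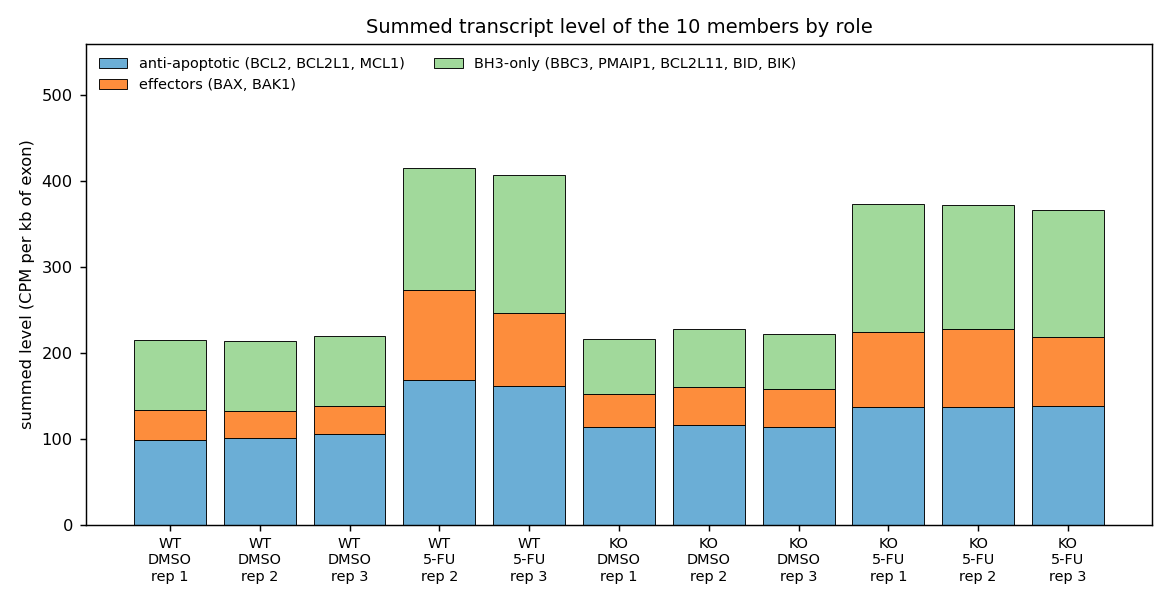
Summed level of the 10 members in each library (y axis, CPM per kb of exon, from 0), stacked by role, with libraries along the x axis by genotype, treatment and replicate. With DMSO the stacks of both genotypes are of like height (217 and 222 on average), and with 5-FU they reach 411 in *WT* and 371 in KO cells.

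**Figure D2:**
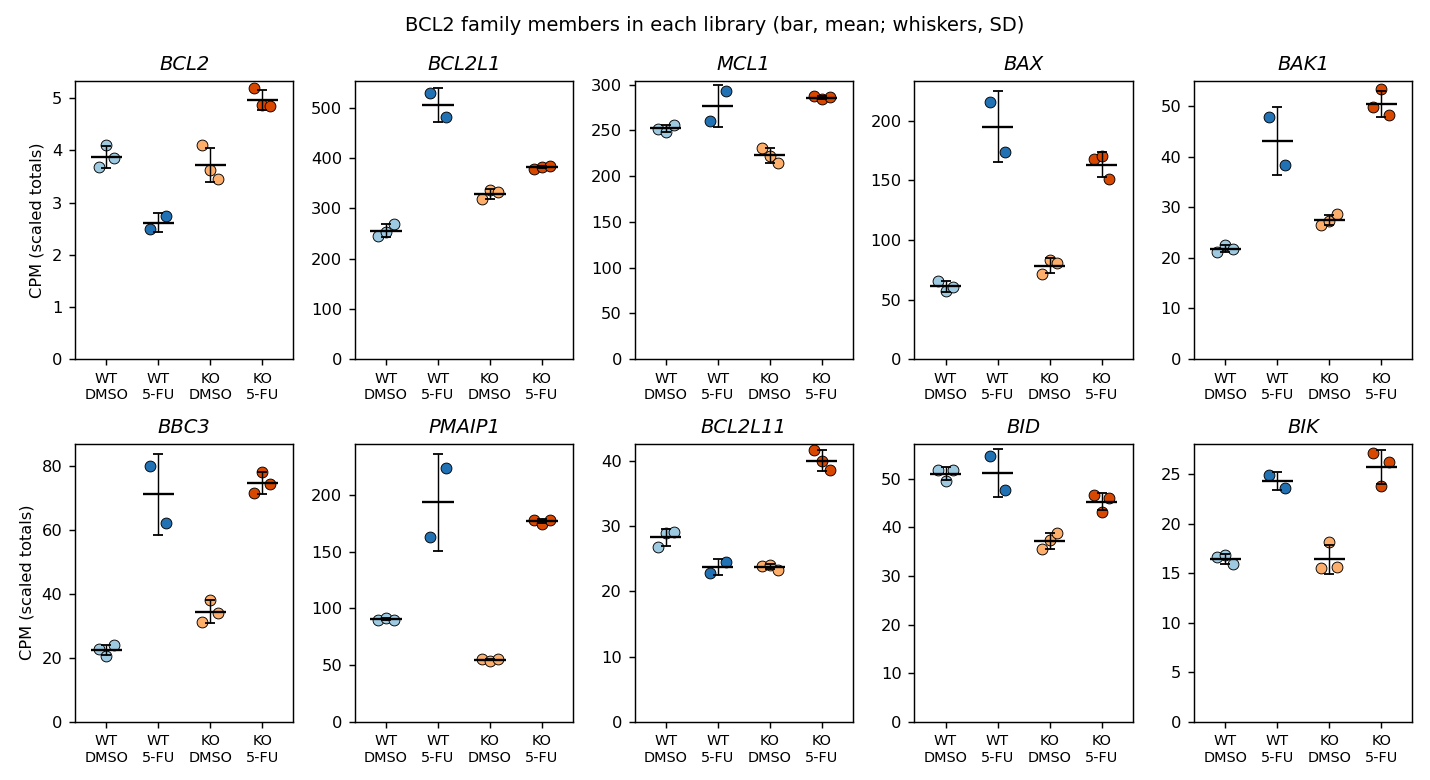
Level of each member in the 11 libraries (y axis, CPM of the scaled total, from 0; points, libraries; horizontal bar, mean; whiskers, SD), with the 4 states along the x axis. *BAX*, *BAK1*, *BBC3*, *PMAIP1*, *BIK*, *BCL2L1* and, by a small margin, *MCL1* are higher in every 5-FU library than in every DMSO library. *BCL2* and *BCL2L11* are lowest or nearly lowest in *WT* cells with 5-FU and highest in KO cells with 5-FU.

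The first comparison asked how the family responds to 5-FU in cells with intact miR-34 genes. In *WT* cells, 5 of the 10 members rose and 0 fell: both effectors (*BAX* and *BAK1*), the p53-inducible BH3-only genes *BBC3* and *PMAIP1*, and the anti-apoptotic *BCL2L1*. Here a gene was called when edgeR's quasi-likelihood test gave FDR < 0.05 and the fold change exceeded 1.5. Over all tested genes 18.5% were called higher and 9.38% called lower in this comparison. The median log2 fold change was 0.77 over the members and 0.03 over all genes. In bulk RNA, a change in every cell and a change in the share of cells that express a gene cannot be told apart.

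*BAX* was at 65.8, 56.9 and 60.4 CPM with DMSO and at 216 and 174 CPM with 5-FU in *WT* cells. The log2 fold change was 1.68 ± 0.09 (SE here and below; FDR = 1.47e-10). *BAK1* went from 21.3, 22.5 and 21.7 CPM to 47.8 and 38.3 CPM (log2 fold change 0.98 ± 0.09, FDR = 7.87e-08). Every 5-FU library was above every DMSO library for both effectors, and replicate 2 was the higher of the pair. Among the BH3-only genes, *BBC3* was at 22.8, 20.6 and 23.8 CPM with DMSO and 80.0 and 62.0 CPM with 5-FU (log2 fold change 1.66 ± 0.10, FDR = 8.17e-10). *PMAIP1* was at 90.2, 91.6 and 90.2 CPM and then at 164 and 224 CPM (log2 fold change 1.09 ± 0.09, FDR = 1.69e-08). Its 3 DMSO libraries were nearly equal, whereas the 5-FU libraries lay far apart and, unlike for *BAX* and *BBC3*, replicate 3 was the higher. *BCL2L1*, which encodes BCL-XL, was at 244, 254 and 269 CPM with DMSO and 529 and 481 CPM with 5-FU (log2 fold change 0.98 ± 0.06, FDR = 4.27e-10).

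The other 5 members were not called in *WT* cells. *BCL2* was at 3.68, 4.10 and 3.85 CPM with DMSO and at 2.49 and 2.74 CPM with 5-FU, which is a log2 fold change of -0.57 ± 0.15 with FDR = 0.00329 and lies just short of the required 1.5-fold. It was called lower with TMM factors (-0.59) and with DESeq2 (-0.60). *BIK*, a BH3-only gene linked to the endoplasmic reticulum, had a log2 fold change of 0.56 ± 0.09 (FDR = 3.02e-05), again just below 1.5-fold, and was called without *WT* 5-FU replicate 3 (0.60). *BCL2L11*, encoding BIM, had a small negative value (-0.26 ± 0.07, FDR = 0.00635). For *MCL1* and *BID* the log2 fold changes were 0.13 ± 0.06 (FDR = 0.0558) and 0.01 ± 0.07 (FDR = 0.943).

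In KO cells, 5-FU raised 6 members and lowered 0, against 13.3% of all tested genes called higher and 12.0% called lower. The 6 were *BAX*, *BAK1*, *BBC3*, *PMAIP1*, *BCL2L11* and *BIK*, that is, both effectors and all BH3-only members except *BID*, and no anti-apoptotic member was among them. The median log2 fold change of the members was 0.70, beside -0.06 over all genes. All 10 members had a positive log2 fold change with FDR < 0.05, which held for 26.6% of all genes, the 4 that were not called lying between 0.22 and 0.42.

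*PMAIP1* changed most, from 55.4, 54.0 and 55.1 CPM to 178, 175 and 178 CPM (log2 fold change 1.69 ± 0.08, FDR = 3.78e-11). With *BBC3*, values of 31.0, 38.0 and 34.1 CPM with DMSO stood against 71.4, 78.2 and 74.3 CPM with 5-FU (log2 fold change 1.12 ± 0.09, FDR = 2.92e-08). Libraries of the same state were close together for *PMAIP1* and more spread for *BBC3*, and the treatments did not overlap for either. *BAX* was at 71.1, 83.1 and 80.5 CPM and then at 168, 171 and 151 CPM (log2 fold change 1.06 ± 0.08, FDR = 1.26e-08). *BAK1* was at 26.6, 27.3 and 28.6 CPM and then at 49.8, 53.4 and 48.3 CPM (log2 fold change 0.88 ± 0.08, FDR = 9.07e-08). *BCL2L11*, not called in *WT* cells, was at 23.9, 24.1 and 23.3 CPM with DMSO and at 41.7, 40.0 and 38.6 CPM with 5-FU (log2 fold change 0.75 ± 0.07, FDR = 5.53e-08). Its 5-FU libraries in KO cells were the highest of all 11. *BIK* was the smallest of the 6, with 15.5, 18.1 and 15.6 CPM and then 27.1, 23.8 and 26.2 CPM (log2 fold change 0.65 ± 0.08, FDR = 2.75e-06). *BCL2L1*, in contrast, had a log2 fold change of only 0.22 ± 0.05 (FDR = 0.00187), from 318, 336 and 333 CPM to 379, 383 and 384 CPM.

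The responses to 5-FU depended on 2 properties of the fit. When the library identical to *WT* DMSO replicate 3 was kept as *WT* 5-FU replicate 1, all 5 calls in *WT* cells were lost (lowest FDR 0.0634). With an RUVg factor in the model, of whose variance 98.2% lay between treatments, no member was called in either genotype. The sign then turned for *BCL2L1*, *BAX*, *BAK1*, *BBC3* and *BID* in both genotypes and for *BCL2* and *BCL2L11* in *WT* cells. Since the RUVg model could hardly separate its factor from the treatment, these signs and lost calls cannot decide how the members respond.

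**Figure D3:**
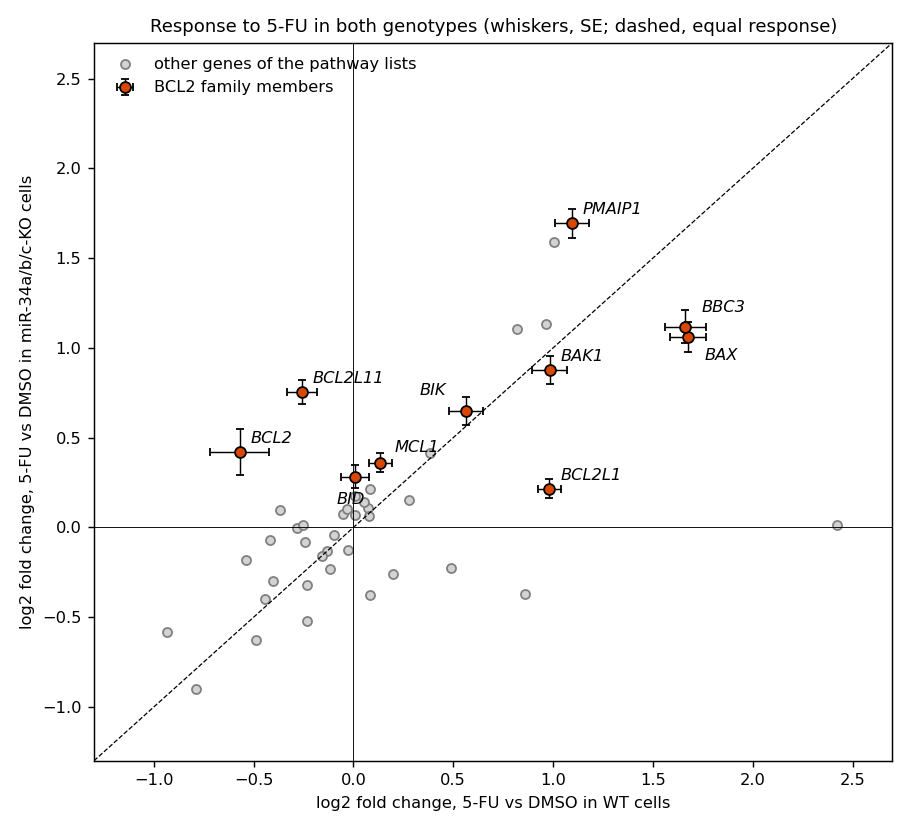
Log2 fold change of 5-FU against DMSO in *WT* cells (x axis) and in KO cells (y axis) for the 10 members (filled, with SE) and for 36 other genes of the apoptosis lists (grey); the dashed line marks equal responses. *BCL2L11*, *BCL2* and *PMAIP1* lie above the line and *BCL2L1*, *BAX* and *BBC3* below it.

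The second comparison asked what loss of the miR-34 genes does to the family in DMSO, and few members passed. *BBC3* was higher in KO cells and *PMAIP1* lower, so that 2 p53-inducible BH3-only genes differed in opposite directions. Called were 1 member higher and 1 lower, against 9.10% and 4.97% of all tested genes, with a median log2 fold change of -0.03 over the members and 0.03 over all genes. With 1 of 10 in each direction, the members were near these background shares.

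The difference of *PMAIP1*, 54.0 to 55.4 CPM in KO against 90.2 to 91.6 CPM in *WT* cells, was a log2 fold change of -0.73 ± 0.08 (FDR = 2.5e-06). It was called whichever of the 11 libraries was omitted, between -0.73 and -0.72, but not with the RUVg factor (-0.11, FDR = 0.728) or with glmTreat, which tests against 1.5-fold (FDR = 0.188). That of *BBC3*, 31.0 to 38.0 against 20.6 to 23.8 CPM, was 0.61 ± 0.10 (FDR = 8.66e-05), just past 1.5-fold. This call was lost with DESeq2 (0.58), without *WT* DMSO replicate 2 (0.56) and without KO DMSO replicate 2 (0.54), and with the RUVg factor the value was -0.19. Among uncalled members with FDR < 0.05, *BCL2L1* (0.36 ± 0.05), *BAX* (0.36 ± 0.08) and *BAK1* (0.33 ± 0.08) had positive values, and *BID* (-0.46 ± 0.07), *BCL2L11* (-0.25 ± 0.07) and *MCL1* (-0.18 ± 0.05) negative ones. All 6 were below 1.5-fold. With the called pair, 8 of the 10 members had FDR < 0.05 in either direction, as did 46.3% of all genes. *BCL2*, whose 3′ UTR holds the seed match shown above, was at 3.68 to 4.10 CPM in *WT* and 3.46 to 4.09 CPM in KO cells, overlapping, with a log2 fold change of -0.06 ± 0.13 (FDR = 0.736). *BIK*, with a match to the miR-34a seed as well, had -0.0036 ± 0.081 (FDR = 0.978). *BAK1*, with the match to the miR-34b seed, had the 0.33 ± 0.08 given above (FDR = 0.00347).

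With 5-FU the genotypes differed in other members. *BCL2* and *BCL2L11*, an anti-apoptotic gene and a BH3-only gene, were higher in KO than in *WT* cells, and 0 members were lower, against 7.58% of all genes called higher and 10.6% called lower. *BCL2* stood at 5.19, 4.87 and 4.84 CPM in KO and at 2.49 and 2.74 CPM in *WT* cells (log2 fold change 0.93 ± 0.15, FDR = 7.26e-05). These values rest on 80 to 131 counts per library, and the call was lost when the test itself required more than 1.5-fold (glmTreat, FDR = 0.0503). *BCL2L11* stood at 41.7, 40.0 and 38.6 CPM against 22.8 and 24.5 CPM (log2 fold change 0.76 ± 0.07, FDR = 4.64e-07). Both calls were made in all 11 fits without 1 library. The per-library values of both genes did not overlap between genotypes.

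*BCL2L1* was lower in value in KO cells with 5-FU without reaching 1.5-fold (-0.40 ± 0.06, FDR = 2.8e-05), the reverse of its sign with DMSO. *PMAIP1* and *BBC3*, which differed between genotypes with DMSO, had log2 fold changes of -0.13 ± 0.09 (FDR = 0.235) and 0.07 ± 0.10 (FDR = 0.587) with 5-FU, and their libraries overlapped. The same held for *MCL1* (0.05 ± 0.06, FDR = 0.521) and *BIK* (0.08 ± 0.08, FDR = 0.449). *BAX* (-0.26 ± 0.09, FDR = 0.0225), *BID* (-0.18 ± 0.07, FDR = 0.0476) and *BAK1* (0.23 ± 0.09, FDR = 0.0387) had small values in both directions. Among the members with a seed match, the values with 5-FU were thus 0.93 for *BCL2*, 0.23 for *BAK1* and 0.08 for *BIK*. A role of the matches was not tested.

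Whether the response to 5-FU itself depended on the genotype was tested as the interaction, the log2 fold change of 5-FU in KO cells minus that in *WT* cells. Called were 5 of the 10 members, *BCL2L11*, *BCL2* and *PMAIP1* with the higher response in KO cells, and *BCL2L1* and *BAX* with the lower. These are 3 and 2 of the 10 members, against 3.42% of all genes called higher and 6.66% called lower, and the median was 0.16 over the members and -0.09 over all genes. The 5 genes came from all 3 functional classes. At FDR < 0.05 alone, 8 of the 10 members passed in either direction, as did 26.1% of all genes. Scaling shifted the split over all genes, from 551 higher and 1073 lower to 676 and 844 with TMM factors and 703 and 674 with DESeq2.

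*BCL2L11* had the largest interaction, 1.01 ± 0.10 (FDR = 2.98e-06), from -0.26 in *WT* to 0.75 in KO cells. *BCL2* followed with 0.99 ± 0.20 (FDR = 0.00166), from -0.57 to 0.42. In both genes the log2 fold changes of the 2 genotypes had opposite signs, although only the rise of *BCL2L11* in KO cells passed the call. With the RUVg factor, which is hardly separable from 5-FU, the values in *WT* cells were positive for both (0.34 and 1.67, FDR = 0.909 and 0.755). *BCL2L1* had -0.77 ± 0.08 (FDR = 4.39e-06), its log2 fold change being 0.98 in *WT* and 0.22 in KO cells. All 3 were called in every fit without 1 library (*BCL2L11* 0.96 to 1.06, *BCL2* 0.92 to 1.06, *BCL2L1* -0.83 to -0.69). *BCL2L11* was also called under every other alternative, whereas *BCL2* and *BCL2L1* lost the call with the RUVg factor (0.73 and -0.57), with the identical library kept (0.77 and -0.52) and with glmTreat (FDR = 0.213 and 0.15).

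For *PMAIP1* the interaction was 0.60 ± 0.12 (FDR = 0.00174), and for *BAX* it was -0.62 ± 0.12 (FDR = 0.00162), both close to 1.5-fold. Without *WT* 5-FU replicate 2 they were 0.39 and -0.45 and no longer called, and the call of *BAX* was also lost without *WT* DMSO replicate 2, KO DMSO replicate 2 or KO 5-FU replicate 3 and with TMM factors (-0.56) or DESeq2 (-0.54). The calls of *PMAIP1* and *BAX* were also lost with the RUVg factor (0.17 and -0.11), with the identical library kept (0.88 and -0.24) and with glmTreat. That of *PMAIP1* was lost as well when at least 20 counts were required in every library (0.58). The mean levels reached with 5-FU were 177 CPM in KO and 194 CPM in *WT* cells for *PMAIP1*, and 163 and 195 CPM for *BAX*. *BBC3* had -0.54 ± 0.14 (FDR = 0.00908) and was not called. It was called lower without KO DMSO replicate 1 (-0.61) or *WT* DMSO replicate 3 (-0.59), and its value was -0.71 without *WT* 5-FU replicate 3. The interactions of *BID* (0.28 ± 0.10, FDR = 0.0463) and *MCL1* (0.23 ± 0.08, FDR = 0.0407) were below 1.5-fold. *BAK1* (-0.11 ± 0.12, FDR = 0.541) and *BIK* (0.08 ± 0.12, FDR = 0.633) gave no detectable difference in response. Outside the family, the p53 target *CDKN1A* had -1.24 ± 0.07 (FDR = 1.41e-08), so a lower response in KO cells was not particular to the members.

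**Figure D4:**
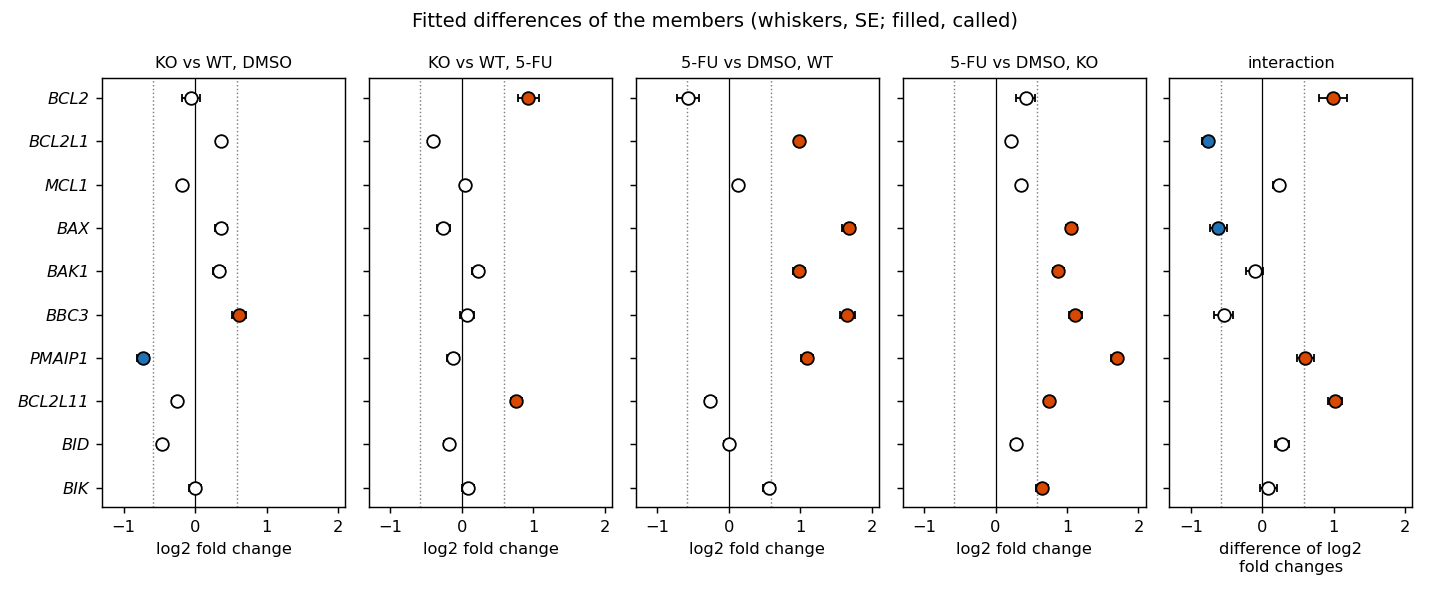
Log2 fold change of each member (x axis; whiskers, SE) in the 4 comparisons between states and, at the right, the interaction as a difference of log2 fold changes; filled points were called (orange, higher; blue, lower) and dotted lines mark 1.5-fold. The treatment panels hold 5 and 6 filled points, all to the right, and the interaction panel holds 3 to the right and 2 to the left.

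The members followed several orders of the 4 states by level. For *BCL2L1* and *BAX* the order was *WT* with 5-FU, KO with 5-FU, KO with DMSO, *WT* with DMSO, with no overlap between neighbors. *BAK1* and *BBC3* had the same order except that KO cells with 5-FU came first, overlapping with *WT* cells with 5-FU for *BBC3*. For *BCL2* and *BCL2L11* the extremes were the treated cells of the 2 genotypes, with the untreated states between them or, for *BCL2L11* in KO cells (23.8 ± 0.383 CPM, SD, n = 3), level with *WT* cells with 5-FU (23.7 ± 1.21 CPM, SD, n = 2). *BID*, activated by caspase cleavage and not mainly by transcription, varied least on the log2 scale among the BH3-only genes (state means of log2 CPM spanned 0.46), from 37.2 ± 1.67 (SD, n = 3) in KO cells with DMSO to 51.3 ± 4.96 CPM (SD, n = 2) in *WT* cells with 5-FU. *MCL1*, whose protein is short-lived, had the narrowest range of all members on that scale (0.36), from 223 ± 8.12 (SD, n = 3) in KO cells with DMSO to 286 ± 1.59 CPM (SD, n = 3) in the same cells with 5-FU.

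The annotation bears on 3 of these readings. *BCL2L1* (chr20:31664452-31723989, minus strand) shares 41.3% of its exon bases with *ABALON*, a long non-coding RNA on the opposite strand, and the sources do not state whether reads were counted by strand. *ABALON* was listed at 13.1 to 16.6 CPM in *WT* and 22.6 to 26.2 CPM in KO cells with DMSO. With 5-FU it was at 39.0 to 40.8 and 38.4 to 40.9 CPM, so its genotypes overlapped where those of *BCL2L1* did not. Like *BCL2L1*, it was higher in every 5-FU library than in every DMSO library. If strand was not used, reads from shared bases could be assigned to either gene, so such levels cannot separate overlapping genes. *BCL2L11* (chr2:111119378-111168444, plus strand) shares 10.8% with *MIR4435-2HG* on the opposite strand, which was lower in KO (31.9 to 36.9 CPM) than in *WT* cells (43.3 and 44.0 CPM) with 5-FU, the reverse of *BCL2L11*. *MCL1* (chr1:150560895-150579738, minus strand) shares 5.27% with *ADAMTSL4-AS1*, which had at most 3 counts. *BCL2* (chr18:63123346-63320128, minus strand), *BAX* (chr19:48954815-48961798, plus strand), *PMAIP1* (chr18:59899996-59904305, plus strand), *BID* (chr22:17734138-17774770, minus strand) and *BIK* (chr22:43110750-43129712, plus strand) shared no exon base with another annotated gene. *BBC3* (chr19:47220822-47232766, minus strand) and *BAK1* (chr6:33572547-33580293, minus strand) shared under 5% with any 1 other gene.

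To see whether a difference extended to surrounding genes, the 20 tested genes on either side of each member were inspected in both genotype comparisons (for *BID*, near the end of its chromosome arm, 28 in all). The median log2 fold change of the neighbors lay between -0.08 and 0.10 with DMSO and between -0.20 and 0.05 with 5-FU. Near *PMAIP1*, itself at -0.73 with DMSO, it was -0.08. Near *BCL2*, itself at 0.93 with 5-FU, it was -0.10. Near *BCL2L11*, itself at 0.76 with 5-FU, it was -0.05. In these 3 cases the median of the surrounding genes was far from the member's own value. The neighbors spanned 23.1 Mb for *PMAIP1*, 20.4 Mb for *BCL2* and 5.22 Mb for *BCL2L11*, so the medians describe wide regions and could miss a local difference. *PMAIP1* and *BCL2* both lie on chromosome 18 and their sets of neighbors overlap, so they are not independent cases.

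Promoter sequences (RefSeq, GRCh38.p14, 250 bases before to 50 after the start) were available for 8 members, *MCL1* and *BIK* having no entry. A perfect p53 half-site decamer, which reads alike on both strands, occurred in 5.40% of the 11177 promoters of tested genes and in 1 of these 8, *BAK1*, at -73 from the start. Its 250 bases before the start (chr6:33580277-33580526, minus strand) are printed, with the decamer in capitals, as the only match among these promoters. *BAK1* rose with 5-FU in both genotypes, but a role of the decamer was not tested.
BAK1: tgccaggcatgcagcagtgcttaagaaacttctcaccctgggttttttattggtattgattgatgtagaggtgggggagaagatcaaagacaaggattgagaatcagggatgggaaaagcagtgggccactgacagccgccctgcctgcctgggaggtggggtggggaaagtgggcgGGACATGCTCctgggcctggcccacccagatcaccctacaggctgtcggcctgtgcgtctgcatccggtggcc
*BAX*, *BBC3* and *PMAIP1*, which also rose in both genotypes, had no such decamer in this window. This says nothing about sites elsewhere or with mismatches.

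For the 4 members whose state means spanned more than 1 on the log2 scale, the genes with the most similar profile over the 11 libraries were looked up, as a description. They were *CORO6*, *SEMA3B* and *BTBD19* for *BAX* (Pearson r 0.991 to 0.994), *MICALL2*, *HMOX1* and *ANKRD11* for *BAK1* (0.994 to 0.996), *SKIV2L*, *COL9A2* and *ANO9* for *BBC3* (0.993 to 0.996) and *PJA1*, *EAF1* and *WDR43* for *PMAIP1* (0.990 to 0.995). No gene was among the 3 nearest of more than 1 member. The 11 points share 4 states, so that any gene with the same order of state means scores highly.

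Of 39 further genes that act with the family, 36 were tested, *BCL2A1*, *BCL2L10* and *BCL2L14* having at most 13 counts. With 5-FU, 4 were called higher and 2 lower in *WT* cells, and 3 higher and 2 lower in KO cells. Over all genes, 18.5% and 9.38% were called higher and lower in *WT*, and 13.3% and 12.0% in KO cells. The median log2 fold change of the 36 was -0.04 and -0.06. Called higher in both genotypes were *APAF1*, the scaffold of the apoptosome (0.82 ± 0.08 and 1.11 ± 0.07), *BIRC3*, an inhibitor of apoptosis and NF-κB target (1.01 ± 0.10 and 1.59 ± 0.09), and *FBXW7*, a ubiquitin ligase component that marks MCL1 for degradation (0.96 ± 0.09 and 1.13 ± 0.08). *BCL2L12*, a more distant relative, fell in both (-0.79 ± 0.10 and -0.90 ± 0.09). The call was passed in *WT* but not in KO cells by *BCL2L15*, from 1.19 to 6.28 CPM (2.42 ± 0.24), and, downwards, by *BIRC5*, encoding the mitotic protein survivin (-0.94 ± 0.06). It was passed in KO but not in *WT* cells by *AIFM1*, downwards (-0.63 ± 0.05). *BIRC5* fell in KO cells too (-0.58 ± 0.05) and *AIFM1* in *WT* cells (-0.49 ± 0.06), both with FDR < 0.05 but short of 1.5-fold. *BCL2L15* was at 0.02 ± 0.25 in KO cells. Of these 3, *BCL2L15* was also called in the interaction. FDR values of the calls for 5-FU against DMSO were at most 4.35e-06.

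Between genotypes, 2 of the 36 were called higher and 3 lower with DMSO, and 4 higher and 5 lower with 5-FU. Over all genes, 9.10% and 4.97% were called higher and lower with DMSO, and 7.58% and 10.6% with 5-FU, so these counts were near the background. With DMSO the higher were *BOK*, an effector-like relative (0.69 ± 0.07), and *ENDOG*, a mitochondrial nuclease (0.78 ± 0.10), and the lower were *BNIP3*, a hypoxia-inducible mitophagy receptor (-0.83 ± 0.07), *VDAC1*, an outer membrane channel (-0.60 ± 0.05), and *BIRC7* (-1.76 ± 0.46, at 3 to 22 counts per library), with FDR at most 0.00468. *BOK* was higher with 5-FU as well (0.73 ± 0.07), together with *NAIP*, *BIRC3* and *APAF1* at 0.63 to 0.75, and *BIRC7*, *BCL2L15*, *BCL2L12*, *HRK* and *DFFB* were lower (FDR at most 0.00079 for all 9). In the interaction edgeR called 0 of the 36 higher and 2 lower, against 3.42% and 6.66% of all genes. DESeq2 called 1 higher and 1 lower. At FDR < 0.05 alone, 5 were higher and 4 lower, beside 26.1% of all genes in either direction. The lower ones called by edgeR were *BCL2L15* (-2.41 ± 0.35, FDR = 0.000125) and *HRK*, a BH3-only gene (-0.71 ± 0.21, FDR = 0.0182).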

How the data were processed

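The authors sequenced random-primed cDNA of 12 samples, aligned the reads to GRCh38/hg38 with CLC Genomics Workbench and deposited whole-number counts per gene symbol, without filter or normalization. Whether counting used strand is not given in the sources used here. States were read from the sample titles. The library that repeats another was left out. Of the listed genes, 16123 reached 20 counts in 1 or more libraries, and these were fitted after upper-quartile scaling with edgeR 4.0.16 (glmQLFit, glmQLFTest, two-sided, 1 mean per state, 7 residual degrees of freedom), with Benjamini-Hochberg adjustment over all genes. FDR < 0.05 and a fold change > 1.5 made a call. CPM used the scaled totals, and log2 CPM a prior count of 2. The biological coefficient of variation was 6.72%. Samples held 22831415 to 39064210 counts, so counting error was smallest for the abundant members and largest for *BCL2*. Positions and exon lengths came from GENCODE 44 (14135 tested genes with 1 position). The steps were tested on simulated data. All members, up to 3 called genes per list and comparison, and the 3 most similar genes (mean log2 CPM above 3) were named. 1 gene of the lists is not reported here. The members and lists were chosen with earlier results of these data known. Alternatives were TMM, DESeq2 1.42.0, other filters, an RUVg factor (k = 1, 11123 control genes), replicate block, glmTreat, FDR alone, the identical library kept and each library left out. The RUVg controls were the tested genes outside the 5000 that differed most between states here. With 5143 genes higher at FDR < 0.05 for 5-FU in *WT* cells, the controls included responding genes. The study also used RUVg but names neither control genes nor factors, so this fit does not reproduce its normalization.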

Additional observations from a re-analysis of the deposited data

Results flagged for a closer look

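For 8 of the 10 members the response to 5-FU differed between genotypes at FDR < 0.05 in edgeR's interaction test (response in KO minus response in *WT* cells, log2), as it did for 26.1% of all genes. The values were 1.01 for *BCL2L11*, 0.99 for *BCL2*, 0.60 for *PMAIP1*, 0.28 for *BID* and 0.23 for *MCL1*, and -0.77 for *BCL2L1*, -0.62 for *BAX* and -0.54 for *BBC3*. For *BCL2L11* and *BCL2* the treated libraries lay below the untreated ones in *WT* cells and above them in KO cells, in all libraries. For the other 6 the 5-FU libraries were not below the DMSO libraries on average in either genotype. All 8 values rest on 2 libraries of *WT* cells with 5-FU, which stood apart for *PMAIP1* (164 and 224 CPM), *BAX* (216 and 174 CPM) and *BBC3* (80.0 and 62.0 CPM). The part of these 2 libraries in the interactions was not tested beyond leaving each out.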

How the results depend on the processing

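Among the 50 log2 fold changes of the members (10 genes, 5 comparisons), 50 kept their direction and call without a filter, 48 with at least 20 counts in every library, 47 with TMM factors, 46 with DESeq2, 42 with glmTreat (a test against 1.5-fold), 37 with the identical library kept and 19 with the RUVg factor. Of the variance of the RUVg factor 98.2% lay between treatments, so that fit could hardly separate the factor from 5-FU. Its 5-FU values are therefore poorly determined and do not show a reversed response. Called values that turned for 5-FU in *WT* cells were -0.67 (*BCL2L1*, FDR = 0.699), -2.67 (*BAX*, FDR = 0.178), -2.14 (*BAK1*, FDR = 0.359) and -3.36 (*BBC3*, FDR = 0.155). In KO cells they were -2.78 (*BAX*, FDR = 0.113), -1.89 (*BAK1*, FDR = 0.328) and -3.32 (*BBC3*, FDR = 0.0958). The others under RUVg were 0.091 for *BIRC5* with 5-FU in *WT* cells and -0.19 for *BBC3* between genotypes with DMSO. Uncalled values also turned under RUVg, to 0.30 (*BCL2*), 0.044 (*MCL1*), -0.34 (*BAX*) and -0.17 (*BAK1*) between genotypes with DMSO, 1.67 (*BCL2*), 0.34 (*BCL2L11*) and -1.71 (*BID*) for 5-FU in *WT* cells, -1.24 (*BCL2L1*) and -1.23 (*BID*) in KO cells, -0.15 (*BBC3*) and 0.064 (*PMAIP1*) between genotypes with 5-FU, and 0.26 (*BAK1*) and 0.042 (*BBC3*) in the interaction. With the identical library kept they were 0.12 (*BAX*) and 0.16 (*PMAIP1*) between genotypes with 5-FU and 0.16 (*BAK1*) in the interaction. Values near 0 changed sign for *BID* in *WT* cells with TMM factors (-0.0090) or DESeq2 (-0.019) and for *BIK* with DMSO under the stricter filter (0.011). With 1 library left out, sign changes occurred in *BIK* with DMSO (-0.077 to 0.033), *BID* for 5-FU in *WT* cells (-0.10 to 0.10), *MCL1* (-0.033 to 0.13), *BBC3* (-0.10 to 0.27) and *PMAIP1* (-0.33 to 0.11) between genotypes with 5-FU, and *BAK1* in the interaction (-0.26 to 0.065). Apart from the 5-FU values under RUVg, the cause of these changes was not tested. With 7 residual degrees of freedom and 2 libraries of *WT* cells with 5-FU, differences near 1.5-fold are poorly placed on either side of the threshold, and *BCL2* is further limited by its 80 to 133 counts.

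The counts of called members that moved were as follows. For KO against *WT* with DMSO, 0 instead of 1 were higher with DESeq2, RUVg, glmTreat or the identical library kept, 4 with FDR alone, and 0 to 1 with 1 library left out. There, 0 instead of 1 were lower with glmTreat and 4 with FDR alone. For 5-FU in *WT* cells, 0 instead of 5 were higher with RUVg or the identical library kept. 1 instead of 0 was lower with TMM factors, DESeq2 or the header-numbered block, 2 with FDR alone, and 0 to 1 with 1 library left out. For 5-FU in KO cells, 0 instead of 6 were higher with RUVg and 10 with FDR alone. With 5-FU, 1 instead of 2 was higher in KO cells with glmTreat, and 3 instead of 0 were lower with FDR alone. In the interaction, 1 instead of 3 was higher with RUVg, glmTreat or the identical library kept, and 5 with FDR alone. There, 1 instead of 2 was lower with TMM factors or DESeq2, 0 with RUVg, glmTreat or the identical library kept, and 1 to 3 with 1 library left out.

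Of the 36 other genes, with DMSO 0 instead of 2 were higher in KO cells with glmTreat and 7 with FDR alone, and 1 instead of 3 was lower with the stricter filter or glmTreat and 14 with FDR alone. For 5-FU in *WT* cells, 0 were higher (instead of 4) and 0 lower (instead of 2) with RUVg or the identical library kept, 13 were lower with FDR alone, and 2 to 4 with 1 library left out. For 5-FU in KO cells, 0 instead of 3 were higher with RUVg and 6 with FDR alone, and 1 instead of 2 was lower with TMM factors, DESeq2 or glmTreat, 0 with RUVg, 13 with FDR alone, and 2 to 4 with 1 library left out. With 5-FU, 0 instead of 4 were higher in KO cells with glmTreat, 14 with FDR alone and 2 to 5 with 1 library left out, and 2 instead of 5 were lower with glmTreat, 14 with FDR alone and 2 to 6 with 1 library left out. In the interaction, 1 instead of 0 was higher with TMM factors, DESeq2 or no filter, 5 with FDR alone and 0 to 2 with 1 library left out. There, 1 instead of 2 was lower with DESeq2, RUVg or glmTreat, 0 with the identical library kept, 4 with FDR alone and 1 to 3 with 1 library left out.

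Over all genes, glmTreat called 602 higher and 327 lower between genotypes with DMSO, 1833 and 740 for 5-FU in *WT* cells, 1372 and 875 for 5-FU in KO cells, 478 and 709 between genotypes with 5-FU, and 135 and 154 in the interaction. FDR alone gave 3943 and 3529, 5143 and 4569, 4286 and 5451, 3483 and 4512, and 1622 and 2585. These stood against 1467 and 802, 2978 and 1512, 2137 and 1932, 1222 and 1702, and 551 and 1073. The stricter filter called 513 lower with DMSO, 1910 higher for 5-FU in *WT* and 1380 in KO cells, and 1127 lower between genotypes with 5-FU. RUVg called 783 higher with DMSO, 3 and 0 for 5-FU in *WT* and 1 and 0 in KO cells, and 466 lower in the interaction. With the identical library kept, edgeR called 0 and 0 for 5-FU in *WT* cells, where 6467 genes had an unadjusted p below 0.05, and 185 and 243 in the interaction. DESeq2 called 674 lower in the interaction.

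The replicate numbers of the titles gave no clear sign of pairing, but the check could not exclude it. Deviations within a state of so few libraries depend on each other, and samples of different numbers were not compared. Deviations from the state means of same-numbered samples correlated between -0.192 and 0.237, and not all were above 0.1. With a replicate block, the members' calls were the same in all 50 cases, and 1 instead of 0 of the other genes was higher in the interaction. A block on the numbers in the headers of the count tables, chosen after seeing the data, changed 1 member call, *BCL2* for 5-FU in *WT* cells (-0.60, called lower), and again gave 1 instead of 0.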
